A study of Mus musculus with 6 samples.

Results

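G protein-coupled receptors (GPCRs), the heterotrimeric G proteins they activate, and the enzymes and anchors of cAMP signalling were followed in lymphatic endothelial cells of the mouse meninges. Members were taken by a rule on gene symbols, which uses no measured value: adhesion receptors (Adgr), numbered receptors (Gpr), receptors for sphingosine 1-phosphate (S1pr), lysophosphatidic acid (Lpar) and adrenergic ligands (Adra), Calcrl, atypical chemokine receptors (Ackr), G protein subunits (Gna, Gnb, Gng), regulators of G protein signalling (Rgs), adenylyl cyclases (Adcy), phosphodiesterases (Pde), protein kinase A subunits (Prkar, Prkac) and A-kinase anchoring proteins (Akap). Of the 4233 genes in the deposited table, 45 met this rule, and all 45 passed the filter on low values. None of the 45 is a prostaglandin E or adenosine receptor, a Ramp protein or an endothelin gene, families that the rule also covered. Absence from the deposited table, here and in the lists below, does not show that a gene was not expressed. The listed genes all meet a limit on spread, given below.

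The WT group was 3 libraries from male non-transgenic C57BL/6J mice aged 6 months, and the 5xFAD group was 3 libraries from age-matched male littermates hemizygous for 5xFAD. Every library was made from meningeal cells of 10 pooled mice, sorted as singlets without DAPI or CD45 signal that carried CD31 and podoplanin. In the 5xFAD strain, mutant human transgenes under the neuronal Thy1 promoter cause amyloid to deposit in the brain, so the sorted cells are not where that promoter is mainly active. The comparison asks how these cells differ between the genotypes.

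A GPCR that binds its ligand loads GTP onto a G protein alpha subunit, which separates from the beta-gamma pair. Gs alpha turns on adenylyl cyclase, Gi alpha turns it off, and Gq alpha turns on phospholipase C. Rgs proteins speed GTP hydrolysis and so end the signal. The cAMP made by adenylyl cyclase releases the catalytic subunits of protein kinase A from their regulatory subunits, and also switches on Epac proteins, which load the small GTPase Rap1. Phosphodiesterases break cAMP or cGMP down, and anchoring proteins hold protein kinase A in place. In endothelium, cAMP and Rap1 are known for tightening junctions, and the adrenomedullin receptor built on Calcrl is required for lymphatic vessels to form.

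The libraries held from 7960827 to 13255050 recovered reads in listed genes, which are a part of each library. The 45 members took 0.752 to 0.947% of these reads. Listed genes without reads numbered 26, 25 and 42 in WT and 87, 86 and 147 in 5xFAD (libraries 1, 2 and 3 in order). Members without reads numbered 0, 1 and 0 in WT and 3, 2 and 3 in 5xFAD. A gene is in the table only if its SD of log2(reads + 1) was below 2 in each genotype, a property found from the values and stated in no source used here. No such limit held across genotypes: over all 20 choices of 3 libraries it was met by 28 of the 45 members. Spread between replicates may therefore be understated in the table, and calls may be too many. All 11 markers of lymphatic endothelium sought were present, at a summed level of 264689.9 to 303839 in WT and 230046 to 357048 in 5xFAD, and none passed the test. Among markers of other cells, 8 of 12 blood endothelial genes summed to 15128 to 26893 in WT and 20248 to 26768 in 5xFAD (1 lower by limma, Sox17). The 4 of 11 mural genes summed to 2507 to 8628 in WT and 3400.4 to 4645 in 5xFAD, and 5 of 10 fibroblast genes to 21974 to 40861 in WT and 23995 to 26659 in 5xFAD. Of the erythrocyte and platelet list 1 of 8 (Hbb-bt) was present, at 1362 to 2211 in WT and 242 to 3526 in 5xFAD. In bulk samples, fewer cells of a type and less RNA per cell cannot be told apart.

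Across the 45 genes, 3 fell in 5xFAD and 0 rose (limma on log2(normalised count + 1), Benjamini-Hochberg adjusted p under 0.05 over 4152 genes). Of all tested genes, 4.48% were called lower and 1.88% higher, so 3 of 45 lower lies near that background. The genes that fell were Gpr34, Gpr75 and Rgs8, all of low abundance. Their 5xFAD means (0, 2.43 and 0) were below the filter on a mean of 10. They were tested because of their WT means (44.8, 36.2 and 31.5), and a filter passed through 1 group favours genes that differ. At an unadjusted p under 0.05 there were 10, with 4 positive and 6 negative differences, against 6.70% and 9.61% of all genes. DESeq2 on the recovered reads called 1 member higher (Adcy4) and 6 lower (the same 3 with Akap8l, Gnai3 and Rgs9), against 3.96% and 6.41% of all genes, and edgeR called 0 and 3, against 1.93% and 4.12%. The groups did not overlap for 3 higher and 6 lower members, against 7.97% and 10.1% of all genes. The signs were even, 23 positive and 22 negative. The median log2 fold change was 0.09 for the members, also with the genes that lack 5xFAD reads set at their bounds, and -0.02 for all tested genes. The median absolute log2 fold change was 0.82 against 0.79. Mean levels ran from 10.9 normalised counts (Lpar2) to 9859 (Gnas).

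**Figure D1:**
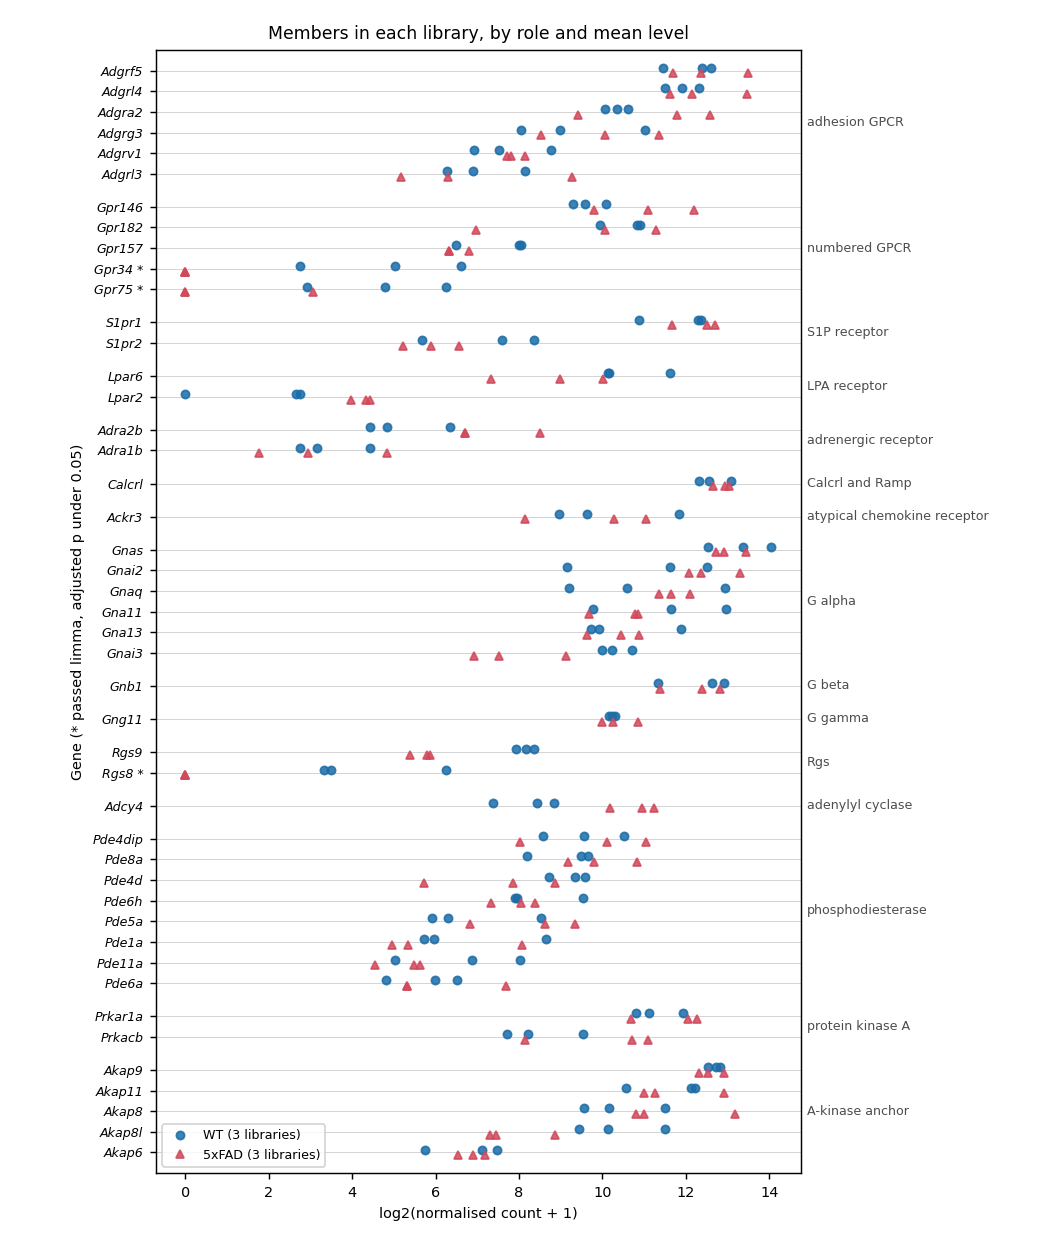
Level of each of the 45 genes in each library, as log2(normalised count + 1) on the x axis, grouped by role on the y axis; blue circles are the 3 WT and red triangles the 3 5xFAD libraries, and an asterisk marks genes that passed limma. For most genes the symbols interleave, while Gpr34 and Rgs8 lie at 0 in all 3 5xFAD libraries.

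Gpr34, a Gi-coupled receptor for lysophosphatidylserine known from microglia and macrophages, was read in all 3 WT libraries and in no 5xFAD library. Its values were 5.75, 96.7 and 31.8 in WT and 0, 0 and 0 in 5xFAD (libraries 1, 2 and 3 in order, here and below), with 7, 104 and 36 WT reads. WT 2 carried most of the WT level, and the groups did not overlap. Means were 44.8 ± 46.8 in WT and 0 ± 0 in 5xFAD (SD, n = 3). With a floor of 3 reads over the 5xFAD group (1.08 normalised counts), the gene was at least 41.5-fold lower (limma adjusted p = 0.00012). Without WT 2 the bound was 17.4, and without 5xFAD 1, which had no Gpr34 reads, it was 23.5 because fewer libraries lie behind the floor. Gpr34 lies on the X chromosome (13632089 to 13640858, GRCm38) inside Cask, on the opposite strand and without shared exons. Cask was at 1127, 448 and 1806 in WT and 1381, 3585 and 971 in 5xFAD, and its groups overlapped. The leukocyte list had 1 of 12 genes in the table, Mrc1, which lymphatic endothelium also expresses. Mrc1 was at 11829, 8243 and 10000.5 in WT and 9819, 11310.1 and 8105 in 5xFAD, with overlapping groups. Cx3cr1, a chemokine receptor of the same myeloid cells and a gene of the list of other receptors, was at 32.9, 186 and 115 in WT and 80.5, 60.8 and 82.3 in 5xFAD, again with overlap (limma adjusted p = 0.949). The part of leukocyte RNA in the Gpr34 values was not tested.

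Rgs8, which speeds GTP hydrolysis on Gi, Go and Gq alpha subunits, also had no 5xFAD read. It was at 9.04, 10.2 and 75.2 in WT and 0, 0 and 0 in 5xFAD, so that WT 3 stood above the other WT libraries and the groups did not overlap. Means were 31.5 ± 37.9 in WT and 0 ± 0 in 5xFAD (SD, n = 3). The gene was at least 29.2-fold lower (limma adjusted p = 0.000688), at least 8.93-fold without WT 3 and at least 16.5-fold without 5xFAD 1, which held no Rgs8 reads. It lies at chromosome 1, 153653025 to 153700323, and its exons overlap the antisense gene Gm29529, whose reads cannot be told from its own without strand. Rgs8 is best known from Purkinje neurons, and the part of neural RNA in its values was not tested.

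Gpr75, a receptor linked to the lipid mediator 20-HETE, was at 75.6, 6.51 and 26.5 in WT and 0, 7.29 and 0 in 5xFAD. The groups overlapped here, since 5xFAD 2 (6 reads) was above WT 2 (7 reads). Means were 36.2 ± 35.6 in WT and 2.43 ± 4.21 in 5xFAD (SD, n = 3), and the log2 fold change was -3.63 (SE 1.03; limma adjusted p = 0.00993). The call was lost without WT 1 (-2.83, limma adjusted p = 0.0876), without 5xFAD 1 (limma adjusted p = 0.112) and without 5xFAD 3 (limma adjusted p = 0.117). The value was -4.50 without WT 2, and without 5xFAD 2 the gene was at least 23.7-fold lower. Gpr75 lies at chromosome 11, 30885358 to 30893729, and shares exon sequence with Asb3 on the same strand, so reads could be divided between them.

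Each of the 3 calls rests on few reads, 147, 107 and 129 over the WT libraries for Gpr34, Rgs8 and Gpr75. In the same order, their own log2 SD was 1.94, 1.64 and 1.68 in WT and 0, 0 and 1.76 in 5xFAD. These spreads do not enter the fitted SE, which reflects genes of similar level. A wide own spread, as in both groups for Gpr75, is thus not counted in the limma adjusted p. With a pseudocount of 10 the Gpr34 call was kept and those of Rgs8 and Gpr75 were lost (limma adjusted p = 0.0715 and 0.106).

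**Figure D2:**
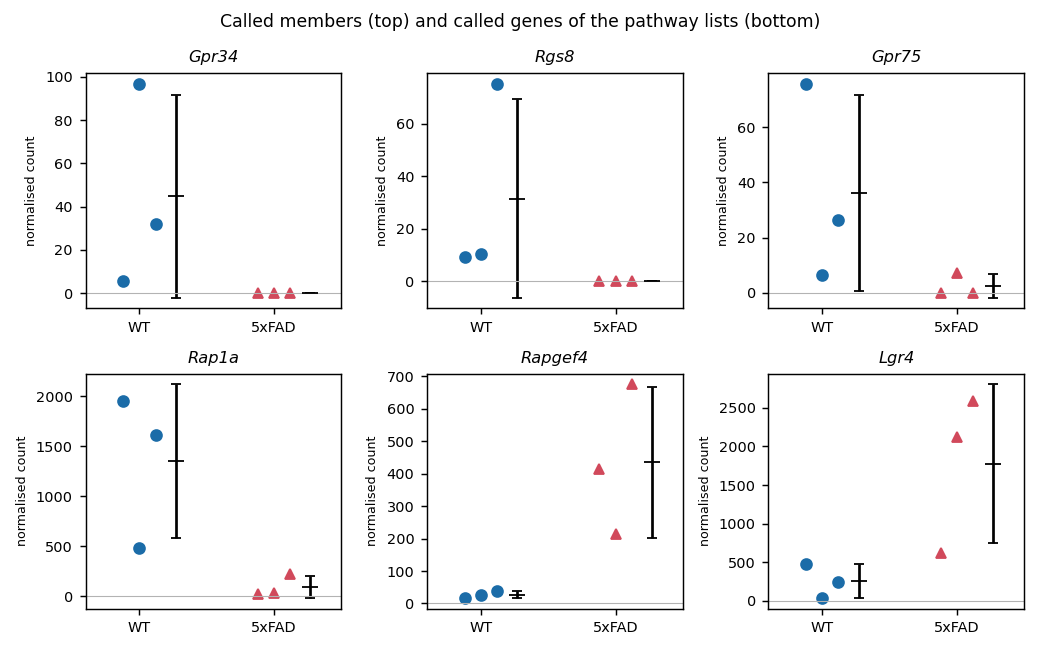
Normalised count (y axis, linear, scale set per panel) of the 3 members that passed limma (top row) and of the 3 called genes of the pathway lists (bottom row), in WT and 5xFAD (x axis); points are libraries and the bar is the mean with SD, n = 3. Rapgef4 and Lgr4 lie higher in every 5xFAD library, Rap1a lies lower, and Gpr75 overlaps at 1 library.

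Promoter sequence was read next because cAMP acts on transcription through CREB, which binds the cAMP response element (CRE, TGACGTCA) and its half-site TGACG. RefSeq windows (GRCm38.p6, 250 bases before to 50 bases after a start) were found for 38 of the 45 genes, 61 windows in all. The full CRE, which reads alike on both strands, was in 3 of these windows (S1pr2 once, Prkar1a in 2 overlapping windows), and in 1.79% of all 32851 windows. The half-site on either strand, which each full CRE also contains, was in 20 of 61 windows, belonging to 15 genes, and in 20.8% of all windows. These matches are letters in a window and do not show binding. Shown 5′ to 3′ up to the start are the called genes with a window, Rgs8 (1 of its 3 windows, chr1:153652787-153653036, strand +) and Gpr75 (chr11:30885108-30885357, strand +), and the genes with a full CRE, S1pr2 (chr9:20976794-20977043, strand -) and Prkar1a (chr11:109650699-109650948, strand +). Capitals mark the CRE or its half-site on either strand, and Gpr75 has none.
Rgs8: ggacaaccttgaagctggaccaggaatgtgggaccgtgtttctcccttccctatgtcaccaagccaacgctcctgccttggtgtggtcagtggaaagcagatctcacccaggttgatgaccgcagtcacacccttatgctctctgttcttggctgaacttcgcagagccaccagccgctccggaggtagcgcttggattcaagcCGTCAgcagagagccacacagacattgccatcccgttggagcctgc
Gpr75: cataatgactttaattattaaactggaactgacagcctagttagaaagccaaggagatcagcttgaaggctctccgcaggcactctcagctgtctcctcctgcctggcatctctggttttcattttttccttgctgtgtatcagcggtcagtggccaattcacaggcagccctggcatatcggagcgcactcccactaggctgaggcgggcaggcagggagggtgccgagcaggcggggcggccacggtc
S1pr2: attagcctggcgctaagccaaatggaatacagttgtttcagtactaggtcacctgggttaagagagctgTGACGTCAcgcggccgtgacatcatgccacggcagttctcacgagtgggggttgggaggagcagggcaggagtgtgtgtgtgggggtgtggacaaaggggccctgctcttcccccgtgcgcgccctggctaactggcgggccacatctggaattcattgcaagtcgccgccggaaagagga
Prkar1a: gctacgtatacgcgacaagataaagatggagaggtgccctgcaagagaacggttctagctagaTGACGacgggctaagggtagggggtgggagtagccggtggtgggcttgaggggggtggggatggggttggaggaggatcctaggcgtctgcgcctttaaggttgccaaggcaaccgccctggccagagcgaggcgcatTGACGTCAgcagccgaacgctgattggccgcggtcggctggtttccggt
The CRE-bearing genes did not pass the test. S1pr2 was at 50.1, 326 and 193 in WT and 93.7, 36.5 and 58.4 in 5xFAD (log2 fold change -1.31, 95% interval -3.41 to 0.78) and Prkar1a at 2235, 1781 and 3930.3 in WT and 4255, 4965 and 1644 in 5xFAD (0.38, -1.13 to 1.90), both with overlapping groups.

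The receptors best known from lymphatic endothelium, Calcrl and S1pr1, were abundant and did not pass. Calcrl, the subunit that forms the adrenomedullin receptor with Ramp2, was at 5090.3, 6005 and 8711 in WT and 8361, 7895 and 6388 in 5xFAD, and its highest and lowest libraries differed 1.71-fold in WT and 1.31-fold in 5xFAD. Its log2 fold change was 0.22 (95% interval -0.96 to 1.40). S1pr1, a Gi-coupled receptor that stabilises endothelial junctions, was at 5294, 5054 and 1897 in WT and 6603, 5787 and 3250.5 in 5xFAD, a log2 fold change of 0.43 (-0.93 to 1.79). Groups overlapped for both. Per kilobase of the longest transcript, mean levels over the 6 libraries were 1526 normalised counts for S1pr1, 1449 for Calcrl, 1252 for Adgrl4 and 673 for Adgrf5, against 19.8 for S1pr2.

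Of the 6 adhesion GPCRs, 5 had a positive difference and 0 passed (limma adjusted p from 0.680 to 0.967). Adgrl4, an endothelial receptor of angiogenesis, was at 2887, 3856 and 5139 in WT and 4520.3, 3126 and 11316 in 5xFAD, and Adgrf5, an endothelial and lung epithelial receptor, at 6242, 5403 and 2801 in WT and 5295, 3304 and 11439 in 5xFAD. In both, 5xFAD 3 was the highest of all 6 libraries and the other 5xFAD libraries lay within the WT range. Log2 fold changes were 0.49 (-0.85 to 1.84) and 0.36 (-0.93 to 1.66), and without 5xFAD 3 they were -0.04 and -0.12. Adgra2, a co-receptor for Wnt7 in brain endothelium, spread 8.95-fold within 5xFAD (6138, 686 and 3557) against 1.46-fold within WT (1558, 1065 and 1307). Adgrg3, reported to steer migration of lymphatic endothelial cells, was at 2092, 503 and 262 in WT and 2608, 1069.9 and 369 in 5xFAD, a range of 7.99-fold in WT and 7.07-fold in 5xFAD. The remaining 2, Adgrl3, a latrophilin, and Adgrv1, the very large receptor of sensory hair cells, had means of 202 and 242 and log2 fold changes of -0.19 and 0.15.

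Gpr182, an endothelial receptor that takes up chemokines, was at 977, 1919 and 1831 in WT and 124, 2507 and 1064 in 5xFAD. Exons of Zbtb39 on the opposite strand overlap it. Library 5xFAD 1 was 20.3-fold below 5xFAD 2. The log2 fold change was -1.12 (-2.96 to 0.71) and turned to 0.11 without 5xFAD 1, whereas it was -2.05 without 5xFAD 2. Ackr3, which scavenges the chemokine CXCL12 and adrenomedullin, was at 3683, 789 and 499.8 in WT and 1239, 2125 and 281 in 5xFAD, a spread of 7.37-fold in WT and 7.56-fold in 5xFAD (log2 fold change -0.32, -2.16 to 1.52). The Ackr3 value turned to 0.53 without WT 1 and 0.52 without 5xFAD 3, and was -0.94 without 5xFAD 2 and -0.91 without WT 3. Gpr146 was at 631, 1085 and 772 in WT and 886, 2189.6 and 4655 in 5xFAD (log2 fold change 1.36, -0.41 to 3.14) and Gpr157, the last of the numbered receptors, had a log2 fold change of -1.03.

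The 2 receptors of lysophosphatidic acid had differences of opposite sign, and neither passed. Lpar6, which couples to G12 and G13, was at 1124, 3159 and 1144 in WT and 508, 1041 and 159 in 5xFAD, so that every 5xFAD library was below every WT library. The log2 fold change was -1.86 (-3.74 to 0.02; limma adjusted p = 0.315), and it was -1.13 without 5xFAD 3 and -2.48 without 5xFAD 2. Lpar6 lies inside Rb1 on the opposite strand with overlapping exons (chromosome 14, 73237895 to 73243294), and Rb1 was at 988, 393 and 451 in WT and 715, 1295 and 594 in 5xFAD, with overlapping groups. Lpar2 was near the floor of the assay, at 5.75, 0 and 5.31 in WT and 19.1, 20.7 and 14.6 in 5xFAD, all 5xFAD libraries above all WT libraries (log2 fold change 2.44, 0.40 to 4.47; limma adjusted p = 0.166). Quantile normalization gave a call (limma adjusted p = 0.0484), with a log2 fold change of 3.17. Of the adrenergic receptors, Adra2b, a Gi-coupled receptor, was at 79.7, 20.5 and 27.4 in WT and 104, 103 and 359.5 in 5xFAD, without overlap (log2 fold change 2.11, 0.01 to 4.21; limma adjusted p = 0.303). Adra1b, a Gq-coupled receptor, was at 11.8 on average, with a log2 fold change of -0.27.

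**Figure D3:**
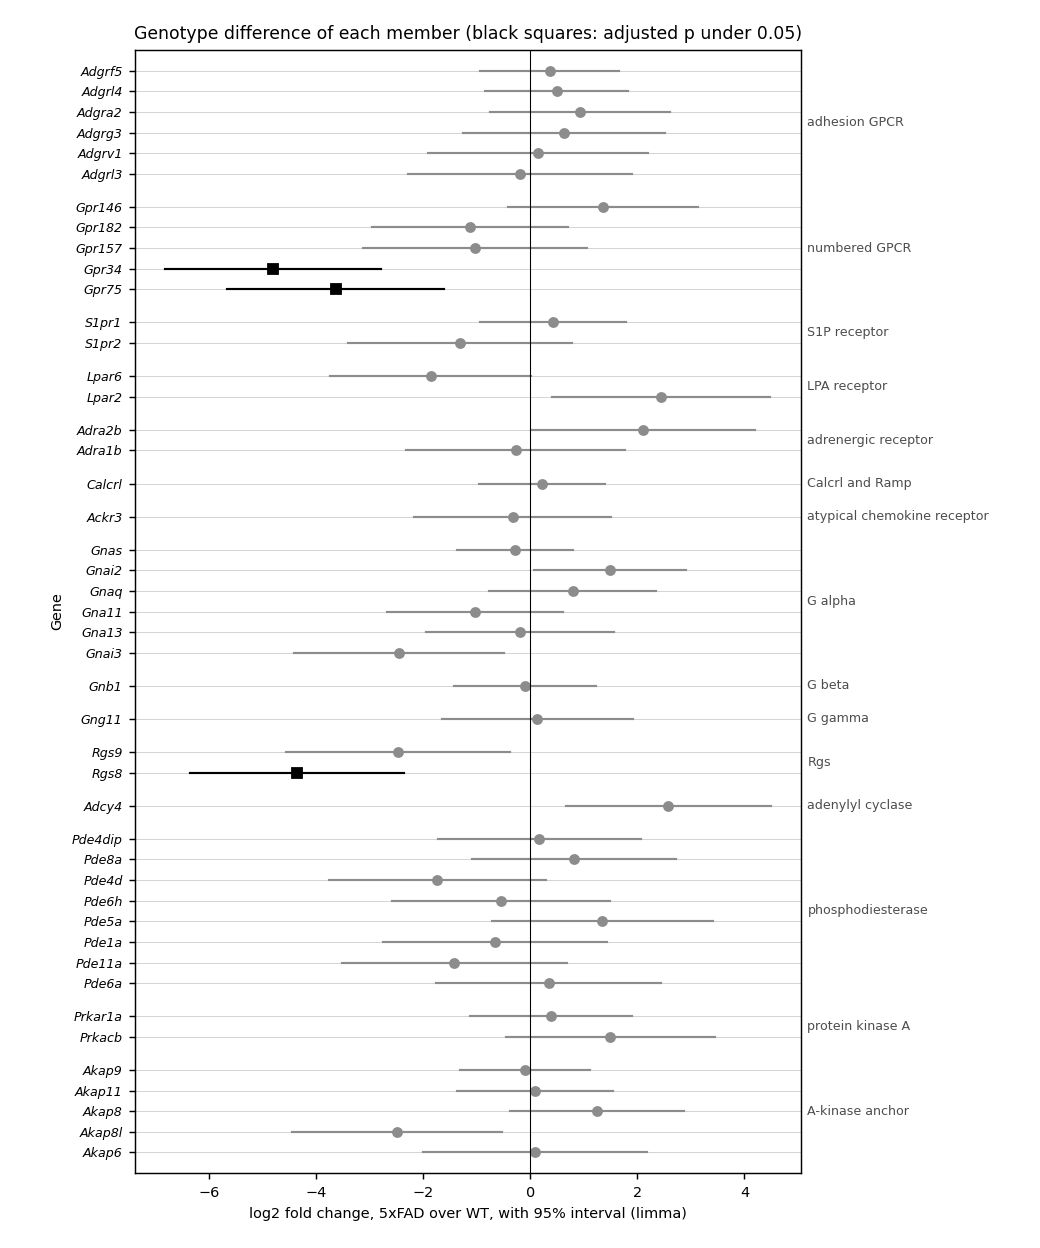
Log2 fold change of 5xFAD over WT (x axis, points) with its 95% interval from limma (lines) for the 45 genes grouped by role (y axis); black squares passed at adjusted p under 0.05. Most intervals span 0, and the fitted points of Gpr34 and Rgs8, which had no 5xFAD reads, depend on the pseudocount of 1.

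All 6 listed G protein alpha subunits were read in every library and none passed. Gnas, which encodes Gs alpha, was the most abundant member, at 17019, 5923 and 10528 in WT and 11187, 6736 and 7759 in 5xFAD (log2 fold change -0.29, -1.36 to 0.79). Antisense exons of Nespas overlap it. The Gq alpha gene Gnaq was at 1542, 590.5 and 7899 in WT and 4419.9, 3227 and 2626 in 5xFAD and its close relative Gna11 at 8006, 871 and 3224 in WT and 824, 1846 and 1762 in 5xFAD, and both ranges in WT exceeded those in 5xFAD. The WT range was 13.4-fold for Gnaq and 9.19-fold for Gna11, with WT 3 highest for the former and WT 1 for the latter, against 1.68-fold and 2.24-fold in 5xFAD. Gna13, the alpha subunit of G13, was at 3789, 851 and 965 in WT and 1881, 791 and 1397 in 5xFAD (log2 fold change -0.19, -1.95 to 1.57).

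The Gi alpha genes had differences of opposite sign, and neither passed. Gnai3 was at 1199.8, 1671 and 1012 in WT and 183, 554 and 119 in 5xFAD, with every 5xFAD library below every WT library (log2 fold change -2.46, -4.42 to -0.49; limma adjusted p = 0.136). Gnai2 was at 5859, 3136 and 566 in WT and 4344, 10069 and 5258 in 5xFAD, where WT 3 was low and the groups overlapped (log2 fold change 1.49, 0.06 to 2.91; limma adjusted p = 0.267). Without WT 3 the Gnai2 value was 0.52 (limma adjusted p = 0.878), and without WT 1 it was 2.20. Per kilobase of the longest transcript, the ratio of the Gnai2 level to the Gnai3 level was 7.19, 2.76 and 0.824 in WT and 34.9, 26.7 and 64.8 in 5xFAD. This ratio was chosen after the values of both genes were seen and is given without a test. The sum of the 2 normalised counts overlapped between groups, at 7058, 4807 and 1578 in WT and 4527, 10623 and 5377 in 5xFAD.

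Among partners of the alpha subunits, Gnb1, a beta subunit, was at 2573, 6365 and 7768 in WT and 7269, 2652 and 5405 in 5xFAD (log2 fold change -0.10, -1.41 to 1.22). Gng11, a gamma subunit common in endothelium, had the narrowest WT range of the 45 genes, at 1265, 1149 and 1193 in WT and 1848, 1016 and 1226 in 5xFAD (0.14, -1.65 to 1.92). The groups overlapped for both. Rgs9, the other regulator listed beside Rgs8, is known from photoreceptors and striatum. It was at 329.5, 286 and 243 in WT and 54.7, 57.1 and 41.1 in 5xFAD, a 5.62-fold lower mean in 5xFAD, with a spread of 1.35-fold in WT and 1.39-fold in 5xFAD and no overlap. The log2 fold change was -2.47 (SE 1.07; limma adjusted p = 0.175). The fitted SE reflects genes of similar level and gives no weight to the gene's own spread. Other tests of Rgs9 gave an adjusted p of 0.0793 by limma without the trend, 0.154 by edgeR and 0.00428 by DESeq2, the last a call.

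**Figure D4:**
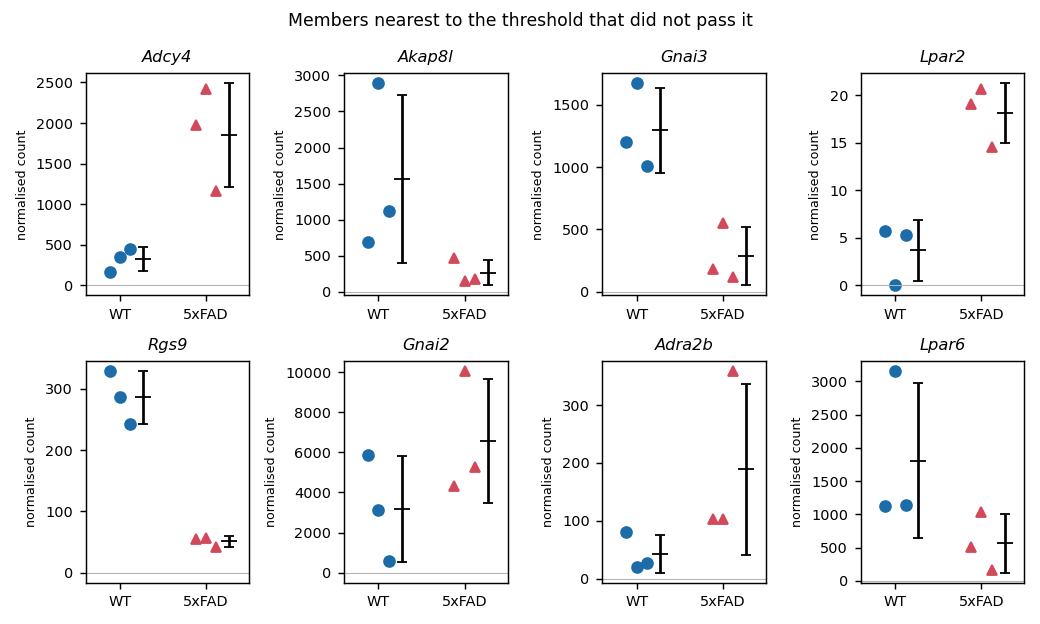
Normalised count (y axis, linear, scale set per panel) in WT and 5xFAD (x axis) of the 7 members with an unadjusted p under 0.05 that did not pass, and of Lpar6; points are libraries and the bar is the mean with SD, n = 3. Rgs9 and Adcy4 show groups far apart relative to their spread, whereas Gnai2 overlaps.

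Adcy4, an adenylyl cyclase of endothelium that Gs and G beta-gamma stimulate, had the lowest adjusted p among members with a positive difference and did not pass. It was at 164, 347 and 454 in WT and 1969.8, 2422 and 1162 in 5xFAD, a 5.76-fold higher mean in 5xFAD with no overlap. The log2 fold change was 2.58 (0.66 to 4.49; limma adjusted p = 0.0957). DESeq2 called it (DESeq2 adjusted p = 0.00607), while edgeR did not (edgeR adjusted p = 0.134).

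None of the 8 Pde genes passed, with 4 positive and 4 negative differences. Pde4d, a cAMP-specific enzyme, was at 648, 422 and 770.5 in WT and 52.3, 232 and 462 in 5xFAD; 5xFAD 1 was the lowest and 5xFAD 3 reached the WT range (log2 fold change -1.74, -3.76 to 0.29). Pde8a, a cAMP-specific enzyme of high affinity, was at 291, 721 and 807 in WT and 574, 892 and 1826 in 5xFAD (0.82, -1.09 to 2.73). Pde4dip (myomegalin), which anchors and is no phosphodiesterase itself, was the most abundant Pde symbol, at 384, 749 and 1471 in WT and 2123, 1100.3 and 257 in 5xFAD, with overlapping groups (0.17, -1.72 to 2.06). Pde5a, which breaks down cGMP, had a log2 fold change of 1.35 (-0.72 to 3.42), and Pde1a and Pde11a, which act on both cyclic nucleotides, of -0.66 and -1.42. The photoreceptor genes Pde6a and Pde6h were read in every library, at means of 77.4 and 332 normalised counts, and had log2 fold changes of 0.35 and -0.55. Exons of Pde6h overlap those of Arhgdib on the opposite strand, and without strand the reads of the genes cannot be told apart.

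Of protein kinase A, the catalytic subunit gene Prkacb was at 294, 739 and 211 in WT and 2195, 281 and 1679.6 in 5xFAD. Library 5xFAD 2 lay within the WT range and the other 5xFAD libraries above it (log2 fold change 1.50, -0.45 to 3.44). The regulatory subunit gene Prkar1a is given above with its promoter. Akap9, a large anchor at the centrosome and Golgi, was the most abundant anchor, at 5903, 7221 and 6743 in WT and 5127, 7689.6 and 5881 in 5xFAD (log2 fold change -0.10, -1.32 to 1.11). Akap8l and Akap8 encode nuclear anchoring relatives. Akap8l was at 689, 2890.1 and 1127 in WT and 468, 157 and 172 in 5xFAD, without overlap (log2 fold change -2.48, -4.44 to -0.53; limma adjusted p = 0.128), and Akap8 at 2922, 758 and 1136 in WT and 9352, 1779.9 and 2031 in 5xFAD, with overlap (1.25, -0.38 to 2.87). DESeq2 called Akap8l lower (DESeq2 adjusted p = 0.0167). Akap11 and Akap6 had log2 fold changes of 0.09 and 0.09.

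Other genes of the pathway were read in 4 lists from the same fit. In the list of cAMP and G protein effectors, 16 of 32 genes were in the table, 1 rose and 1 fell, where 1.88% of all tested genes were called higher and 4.48% lower. Rapgef4, which encodes the cAMP sensor Epac2, was at 17.3, 26.0 and 38.0 in WT and 416, 213 and 675 in 5xFAD, a 16.0-fold higher mean in 5xFAD without overlap (log2 fold change 3.87, SE 1.07; limma adjusted p = 0.00699). The call was lost without WT 1 (limma adjusted p = 0.0587) and without 5xFAD 3 (limma adjusted p = 0.0714). The gene lies at chromosome 2, 71981240 to 72257474, and exons of the antisense gene Rapgef4os2 overlap it. Its relative Rapgef3 was sought and is not in the deposited table, and the cell source of the Rapgef4 values was not tested. Rap1a, a small GTPase that Epac proteins load, fell from 1956, 484 and 1615 in WT to 24.1, 37.7 and 223 in 5xFAD, with no overlap (log2 fold change -4.26, SE 1.04; limma adjusted p = 0.00132). Its value was -4.89 without WT 2, -3.63 without 5xFAD 1 and -5.21 without 5xFAD 3, and the call was kept each time. The gene lies at chromosome 3, 105727267 to 105801336. Its paralog Rap1b, at 2042, 2841 and 1455 in WT and 1087, 1137 and 622 in 5xFAD, had a log2 fold change of -1.15 (-2.91 to 0.61; limma adjusted p = 0.600). Plcb3, a phospholipase C that Gq activates, was at 159, 379 and 121 in WT and 36.5, 59.6 and 7.96 in 5xFAD (log2 fold change -2.84; limma adjusted p = 0.0943), and Arhgef11, a guanine nucleotide exchange factor driven by G12 and G13, at 3715, 675 and 1598 in WT and 852, 233 and 153 in 5xFAD (-2.34; limma adjusted p = 0.150). Neither passed. The most abundant gene of the list, Arhgef12, was at 9074, 5311 and 8379.9 in WT and 8411, 3706 and 9404 in 5xFAD (-0.15, -1.33 to 1.03). The list's median log2 fold change was -0.46.

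In the list of other receptors, 4 of 43 genes were present and 1 rose, where 1.88% of all tested genes were called higher. Lgr4, the R-spondin receptor that strengthens Wnt signals, was at 477, 40.0 and 252 in WT and 621, 2125 and 2587 in 5xFAD, without overlap (log2 fold change 3.14, SE 1.01; limma adjusted p = 0.0311). The call was lost without WT 2 (2.11, limma adjusted p = 0.356), 5xFAD 2 (limma adjusted p = 0.122) or 5xFAD 3 (limma adjusted p = 0.198), by limma without the trend (limma adjusted p = 0.0519), and by edgeR (edgeR adjusted p = 0.0952). The value was 3.89 without WT 1 and 3.78 without 5xFAD 1. The own spread of Lgr4, a log2 SD of 1.84 in WT and 1.11 in 5xFAD, does not enter its SE. The gene lies at chromosome 2, 109917647 to 110014257. Fzd4, a Wnt and norrin receptor and the most abundant of the list, was at 5887, 2901 and 516 in WT and 1624, 4985 and 4429.9 in 5xFAD, with overlap (0.67, -0.87 to 2.22). F2r, the thrombin receptor, was at 388, 1306 and 578 in WT and 1587, 1814 and 1367 in 5xFAD, without overlap, and did not pass (1.25, -0.59 to 3.08; limma adjusted p = 0.58).

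Of the ligands and ligand enzymes, 9 of 33 were present and 0 passed. Ccl21a, a ligand of leukocyte traffic, was the most abundant and had a log2 fold change of 0.01 (-0.49 to 0.51); reads can be shared with its near-identical copies. Ece1, which makes active endothelin, was lower in every 5xFAD library, at 42913, 32896 and 38375 in WT and 25134, 13681 and 27579.9 in 5xFAD (log2 fold change -0.84, -1.54 to -0.13; limma adjusted p = 0.173). Of the genes of desensitisation and G protein handling, 5 of 21 were present, 4 were tested and 0 passed. Arrb1, a beta-arrestin that uncouples active receptors, was the most abundant of them, at 2419, 1726 and 4144 in WT and 1267, 4315 and 7319.5 in 5xFAD (0.40, -1.10 to 1.90). At an unadjusted p under 0.05 the counts were 4 of 16 effectors, 1 of 4 other receptors, 1 of 9 ligand genes and 0 of 4 desensitisation genes, against 677 of 4152 tested genes (16.3%).

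The highest library exceeded the lowest by at least 4-fold within WT for 15 of the 45 genes and within 5xFAD for 19, counting genes with a library at 0. The absolute log2 fold change was larger than the pooled within-group SD for 18 of 45 members, and for 41.2% of all tested genes. Leaving out 1 library moved other named values by over 1.5 times. Signs turned for Gna13 (0.49 without WT 1), Gnaq (-0.06 without WT 2, from 0.79, and 1.81 without WT 3) and Pde4dip (-0.50 without 5xFAD 1, and 1.02 without 5xFAD 3). Signs were kept by Gnai3 (-3.09 without 5xFAD 2), Adra2b (1.51 without 5xFAD 3), Lpar2 (1.54 without WT 2) and Gpr146 (1.98 without 5xFAD 1). Smaller moves also turned the signs of S1pr1 (-0.05 without WT 3), Gnas (0.08 without WT 1) and Akap9 (0.03 without 5xFAD 1). The same held for Gng11 (-0.11 without 5xFAD 1) and Gnb1 (up to 0.32, without WT 2, WT 3 or 5xFAD 2). For the 42 members that did not pass, the adjusted p of limma ran from 0.0957 to 0.985. Intervals of this fit as wide as that of Gng11, -1.65 to 1.92, leave changes of over 2-fold undecided in either direction. They reflect the spread of genes of similar level. The own spread of Gng11, a log2 SD of 0.07 in WT and 0.44 in 5xFAD, does not enter its interval.

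**Figure D5:**
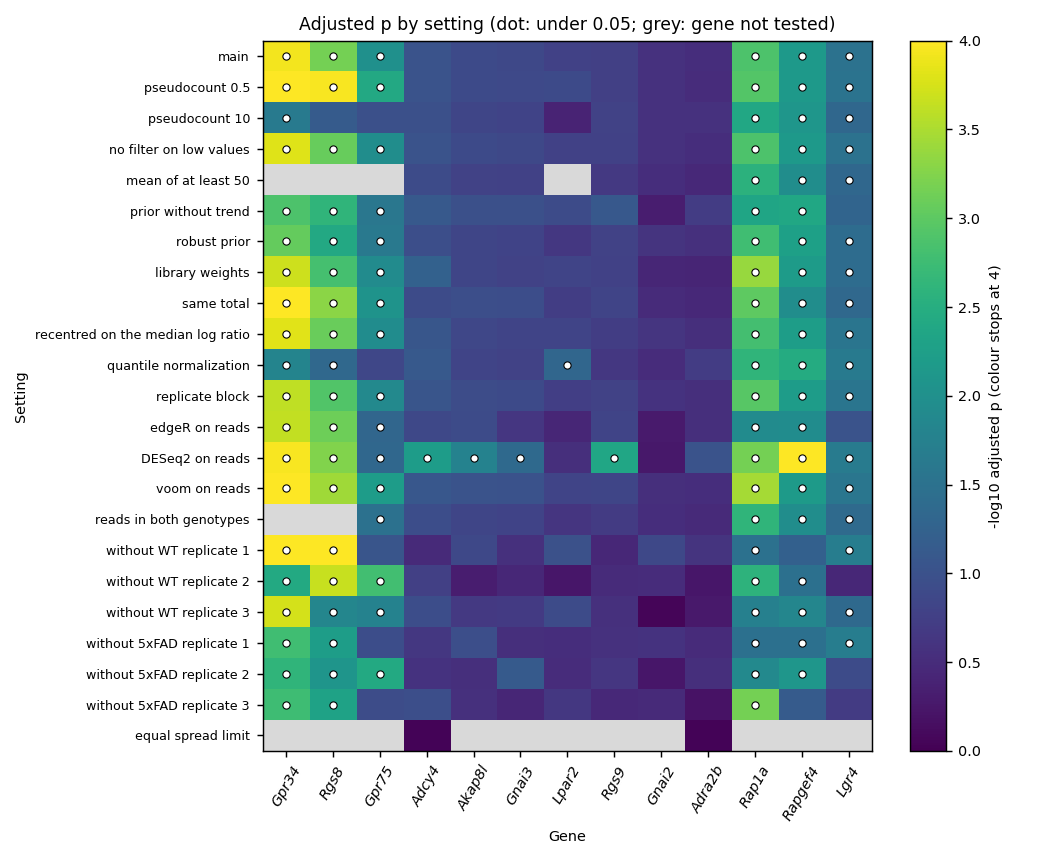
Adjusted p, as −log10 in colour, of the 10 members with an unadjusted p under 0.05 and the 3 called pathway genes (x axis) under each setting (y axis); dots mark an adjusted p under 0.05 and grey cells genes that a setting did not test. Gpr34 and Rap1a keep a dot wherever they were tested, Rgs8 loses it with a pseudocount of 10, and DESeq2 adds Adcy4, Akap8l, Gnai3 and Rgs9.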

How the data were processed

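RNA was measured by sequencing in 3 WT and 3 5xFAD libraries. A PicoPure kit and linear amplification were used per the labels' protocols; amplification adds spread beyond counting. The deposited values are a normalised signal, gene counts that the authors scaled by a single factor in each library. The tools, per the submitters' processing notes, included FastQC, Trimmomatic, Salmon and DESeq2, with the mm10 build; versions and settings are not given in the sources used here. Dividing a column by its lowest value above 0 gave whole reads (100% of values within 1e-06 of a whole number); the sum over listed genes is not the library depth. Floors on reads take account of counting error alone.

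Genes with a mean of at least 10 (4152 of 4233) were tested on log2(value + 1) with limma 3.58.1 (R 4.3.3, prior variance following mean level, two-sided), with calls at a Benjamini-Hochberg adjusted p under 0.05. The prior's degrees of freedom were infinite, and SEs thus reflect genes of similar level. Fold changes on this scale understate those of low genes. Where a group had no reads, its level was set to 3 reads over the whole group and the fold printed as a bound. Positions and transcript lengths are from GENCODE M21 (GRCm38, the assembly of mm10). Scripts were tested on simulated data. A result on neural markers is not reported here. The members and lists were chosen with earlier results of these data known. The text names every called member, members with an unadjusted p under 0.05, the most abundant of each role and a fixed set of endothelial genes, and of the pathway lists the called and the most abundant genes; other genes with values were added after these were seen. Alternatives changed the pseudocount, filter, prior, weights, scaling, threshold, test (edgeR 4.0.16, DESeq2 1.42.0, voom), genes tested and libraries.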

Additional observations from a re-analysis of the deposited data

How the results depend on the processing

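The members called were 0 higher and 3 lower. Quantile normalization gave 1 (Lpar2) and 2. They became 1 and 3 where the threshold was 0.1, which adds Adcy4 (limma adjusted p = 0.0957). With DESeq2 they were 1 and 6 (where 3.96% and 6.41% of all genes were called), and with a pseudocount of 10 they were 0 and 1. Except for the threshold, the cause of these changes was not tested. Settings that test fewer genes gave 0 and 1 among genes with reads in both genotypes, which leaves out Gpr34 and Rgs8. There were 0 and 0 among the 2824 genes (28 members) under the spread limit in all 20 choices of 3 libraries (2 and 0 at an unadjusted limma p under 0.05). That limit leaves out all 3 called members, since choices that mix genotypes exceed it for genes with large genotype differences. Its counts therefore cannot show that large differences fail a stricter test. A mean of at least 50 also leaves out all 3 and gave 0 and 0 (3 and 3 at an unadjusted limma p under 0.05). Over all genes, 78 higher and 186 lower turned into 49 and 116 under that stricter filter and 120 and 160 after quantile scaling. They were 134 and 229 at 0.1 and 163 and 264 with DESeq2. Under the equal limit, which takes out genes with large genotype differences beforehand, they were 1 and 0. With single libraries left out there were 0 to 0 higher and 2 to 3 lower members, and 56 to 84 and 145 to 192 genes. With the replicate number as a block the members were 0 higher and 3 lower, and the genes 80 and 190; libraries that share a number showed no shared deviation (pairwise r 0.00247, -0.0157 and -0.0126), and no library correlated best with its own number. The members' median log2 fold change ran from -0.07 to 0.16. Of 23 named genes that did not pass, 12 changed sign under at least 1 setting without a call, and 5 were called under at least 1; no called gene changed sign.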
